A study of Mus musculus with 4 samples.

Results

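In mouse embryonic stem (ES) cells, 577 of 21418 autosomal protein-coding genes carried H3K9me3 at the gene start and H3K36me3 further inside the gene, with no base of the gene in both marks. The genes were chosen by 3 conditions on the lists of enriched regions. An H3K9me3 region had to lie within 1 kb of the gene start, an H3K36me3 region had to lie in the gene and wholly more than 1 kb from the start, and the lists had to share no base pair inside the gene. In 37 genes the H3K9me3 lay wholly outside the gene, where the third condition could not exclude them, and in 4 genes, 3 of them among these 37, start H3K9me3 shared bases with H3K36me3 outside the gene. Together the genes held 1153 of the 32502 H3K9me3 regions and 2108 of the 31593 H3K36me3 regions. Since the marks themselves chose the genes, the presence and separation of the marks are a description, and no test was made of them.

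Each mark was profiled by ChIP-seq in wild-type (WT) cells and in cells with a glycine-to-arginine substitution at codon 34 of histone H3.3 (H3.3 G34R), with 1 library for each of the 4 combinations. Cells of both genotypes were 129S1/SvImJ ES cells under 20 passages, grown in foetal calf serum with leukemia inhibitory factor. WT cells had both genes for H3.3, H3f3a and H3f3b, unaltered on each allele, whereas H3.3 G34R cells were targeted, heterozygous for G34R at H3f3a under its own promoter after Cre excision, and unaltered at H3f3b. Antibody ab8898 recovered H3K9me3 and an Abcam antibody H3K36me3. Each deposited list joins the sites enriched in WT or in H3.3 G34R cells and gives coordinates only, so a listed region was enriched in at least 1 of the genotypes, and levels and genotypes could not be compared. A gene with both marks could therefore carry them in different genotypes or on different alleles or cells. Neither depth nor signal stands in the lists. Of the 8 ES cell marker genes found by symbol on autosomes, 6 carried body H3K36me3, against 34% of all autosomal protein-coding genes. Start H3K9me3 was at 0 of the 8, against 19.7% of all, and 8 genes are too few to set them apart. Esrrb held 29400 bp of H3K9me3 away from its start. Those without body H3K36me3 were Dppa5a, with no H3K36me3, and Sox2, which had 1783 bp of H3K36me3 over its 2457 bp but no region wholly more than 1 kb from the start.

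H3K36me3 is set behind elongating RNA polymerase II, mainly by SETD2, and normally covers the bodies of transcribed genes towards their 3′ ends. H3K9me3 is the mark of constitutive heterochromatin, bound by HP1 proteins and set by SUV39H1, SUV39H2 and SETDB1. In ES cells it covers retrotransposons, imprinted control regions, germline genes and clusters of zinc finger genes, and demethylases of the KDM4 family can remove methyl groups from both lysines.

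The 250 bases before the start with the first 50 after it are shown for 5 of the named genes whose start lay within the H3K9me3 region, because these bases lie under or beside the mark. All sequences are of the NCBIM37 (mm9) assembly, 5′ to 3′ on the strand of the gene, with CG dinucleotides in capitals. Grb10 and Orc2 have the longest start H3K9me3 of all 577 genes, Rps6ka4 has almost adjoining marks, and Prkg1 and Grip1 have the most distant marks.
Grb10, chr11:11938637-11938936, minus strand: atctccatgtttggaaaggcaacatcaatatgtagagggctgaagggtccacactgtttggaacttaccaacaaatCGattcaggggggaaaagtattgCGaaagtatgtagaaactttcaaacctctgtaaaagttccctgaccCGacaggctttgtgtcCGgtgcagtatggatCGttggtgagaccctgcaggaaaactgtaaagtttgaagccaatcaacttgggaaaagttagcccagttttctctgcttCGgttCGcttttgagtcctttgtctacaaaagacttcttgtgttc
Orc2, chr1:58561904-58562203, minus strand: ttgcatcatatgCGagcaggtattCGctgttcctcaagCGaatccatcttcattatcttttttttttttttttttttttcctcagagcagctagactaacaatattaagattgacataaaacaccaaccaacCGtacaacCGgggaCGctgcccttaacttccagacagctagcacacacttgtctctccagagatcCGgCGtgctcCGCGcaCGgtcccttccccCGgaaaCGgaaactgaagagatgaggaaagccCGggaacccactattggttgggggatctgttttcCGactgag
Rps6ka4, chr19:6915066-6915365, minus strand: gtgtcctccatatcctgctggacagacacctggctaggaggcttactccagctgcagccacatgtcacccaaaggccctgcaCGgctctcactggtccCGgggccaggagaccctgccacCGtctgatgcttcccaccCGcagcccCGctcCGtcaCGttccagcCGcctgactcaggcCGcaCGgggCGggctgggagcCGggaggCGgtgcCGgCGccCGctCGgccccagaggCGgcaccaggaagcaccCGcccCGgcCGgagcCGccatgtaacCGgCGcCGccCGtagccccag
Prkg1, chr19:31839263-31839562, minus strand: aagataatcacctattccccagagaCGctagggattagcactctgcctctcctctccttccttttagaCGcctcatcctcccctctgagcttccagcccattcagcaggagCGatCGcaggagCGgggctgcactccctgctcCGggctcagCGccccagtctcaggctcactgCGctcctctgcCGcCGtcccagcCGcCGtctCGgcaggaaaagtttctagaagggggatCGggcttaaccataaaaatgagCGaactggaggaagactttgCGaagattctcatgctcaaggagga
Grip1, chr10:118890840-118891139, plus strand: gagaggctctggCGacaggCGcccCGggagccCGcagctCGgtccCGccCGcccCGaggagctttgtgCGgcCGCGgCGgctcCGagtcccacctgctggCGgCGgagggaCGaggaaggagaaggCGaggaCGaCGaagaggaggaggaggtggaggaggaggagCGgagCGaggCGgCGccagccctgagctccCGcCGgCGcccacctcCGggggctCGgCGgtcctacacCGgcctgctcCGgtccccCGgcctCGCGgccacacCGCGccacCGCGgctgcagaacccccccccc
The number of CG dinucleotides in these windows ran from 7 in Grb10 through 15 in Orc2, 16 in Prkg1 and 26 in Rps6ka4 to 38 in Grip1. Grb10 was thus the poorest in CG of the 5, although it carried the longest start H3K9me3.

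In 49.4% of the genes the H3K9me3 region began after the start, and 4 such genes, picked after their values were seen, are shown by 300 bases of the region itself. The window nearest the region's centre without an untranslated exon base was taken, and in all 4 genes it was intronic. Myh9 and Ep400 have the longest H3K36me3, and Dnmt3b and Msh6, a de novo DNA methyltransferase and a mismatch repair protein, come from the gene lists described below.
Myh9, chr15:77671751-77672050, minus strand: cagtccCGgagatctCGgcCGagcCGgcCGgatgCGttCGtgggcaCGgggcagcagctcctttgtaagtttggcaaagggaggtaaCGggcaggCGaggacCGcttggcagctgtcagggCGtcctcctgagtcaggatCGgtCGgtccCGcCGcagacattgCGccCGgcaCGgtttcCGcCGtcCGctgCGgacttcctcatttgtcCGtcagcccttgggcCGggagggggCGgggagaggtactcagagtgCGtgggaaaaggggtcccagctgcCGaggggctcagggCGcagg
Ep400, chr5:111199175-111199474, minus strand: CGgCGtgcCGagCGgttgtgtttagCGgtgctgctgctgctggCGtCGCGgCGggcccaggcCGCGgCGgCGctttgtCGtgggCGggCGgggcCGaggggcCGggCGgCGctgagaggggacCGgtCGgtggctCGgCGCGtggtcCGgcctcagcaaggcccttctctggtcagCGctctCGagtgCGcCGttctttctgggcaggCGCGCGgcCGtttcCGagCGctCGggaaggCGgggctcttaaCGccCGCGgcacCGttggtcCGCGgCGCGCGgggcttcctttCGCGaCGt
Dnmt3b, chr2:153475551-153475850, plus strand: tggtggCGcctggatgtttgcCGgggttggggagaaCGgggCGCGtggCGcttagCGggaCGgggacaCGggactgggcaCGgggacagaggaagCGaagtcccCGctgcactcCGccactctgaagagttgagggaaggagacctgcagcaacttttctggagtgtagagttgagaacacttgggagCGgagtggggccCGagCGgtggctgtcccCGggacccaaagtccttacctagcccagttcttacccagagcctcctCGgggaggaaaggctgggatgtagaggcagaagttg
Msh6, chr17:88374751-88375050, plus strand: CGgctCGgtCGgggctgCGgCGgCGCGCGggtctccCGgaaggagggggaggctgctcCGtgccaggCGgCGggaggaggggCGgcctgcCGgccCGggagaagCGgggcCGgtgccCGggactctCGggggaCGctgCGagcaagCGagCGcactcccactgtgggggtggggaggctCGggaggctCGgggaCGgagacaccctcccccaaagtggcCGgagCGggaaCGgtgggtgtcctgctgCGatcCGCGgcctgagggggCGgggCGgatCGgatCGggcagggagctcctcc
These windows held 29 CG dinucleotides in Myh9, 50 in Ep400, 18 in Dnmt3b and 36 in Msh6. Their G+C content was 68.0%, 75.0%, 63.0% and 77.3% in the same order, compared with a median of 47.5% over the 31937 H3K9me3 regions away from these gene starts. The start regions of genes with start H3K9me3 only had a median of 59.0%, and those of genes with shared bases 62.2%.

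Start H3K9me3 was found at 4224 genes, or 19.7% of all autosomal protein-coding genes, and body H3K36me3 in 7281, or 34%. Both conditions were met by 926 genes. In 349 of these the marks shared bases, with a median of 1200 shared bp, and in the remaining 577 they did not. The 577 genes were 2.69% of all genes tested, 13.7% of the genes with start H3K9me3 and 7.92% of those with body H3K36me3. A further 3298 genes had start H3K9me3 only, 6355 had body H3K36me3 only, and 10839 had neither. Near the limits of the rule, 4 genes had marks 200 bp or less apart, while 11 genes were left out for sharing 200 bp or less. Likewise 18 genes had their start region 801 to 1000 bp from the start, whereas 19 genes missed inclusion with H3K9me3 at 1001 to 1200 bp.

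The start H3K9me3 regions were short. They numbered 565, of which 27 served 2 or more neighbouring genes and involved 56 of the genes. Their median width was 600 bp with quartiles of 600 and 1000 bp, and 319 genes (55.3%) had a region of 600 bp, the narrowest width in either list. Only 31 genes had a region of over 2 kb, and the widest reached 18600 bp in Grb10. In genes with start H3K9me3 only, the median was 1000 bp with quartiles of 800 and 2000 bp, and in the 349 genes with shared bases 800 bp with quartiles of 600 and 1600 bp. The median region in the 577 genes ran from -2 to 743 bp relative to the start, against -69 to 1131 bp in genes with start H3K9me3 only.

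The gene start itself lay inside the H3K9me3 region in 250 genes (43.3%, 95% Wilson interval 39.3 to 47.4). The proportion was 66.8% (65.2 to 68.4) in genes with start H3K9me3 only, an interval apart from that of the 577, and 51.3% (46.1 to 56.5) in the 349 genes whose marks shared bases, an interval overlapping it. Of the other genes, 285 had the region after the start and 42 before it. All intervals given here cover counting error over genes, which are not replicates, and say nothing of the spread between cultures. Because the authors kept only bins overlapping annotated genes, sequence before the start is under-represented, so the excess of H3K9me3 after the start cannot be told apart from this selection.

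By annotation, 51.1% of the bases of start regions were intronic, 14.5% coding, 17.6% in other exon sequence and 16.7% outside the gene. Coding bases occurred in the start region of 327 genes. A further 588 H3K9me3 regions lay elsewhere in the same genes, but they were concentrated in 177 of them (30.7%).

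The profile of both marks around the start traces the separation that the rule required. In 76.6% of the 577 genes H3K9me3 covered the position 300 bp after the start, where H3K36me3 covered 0%. In genes with body H3K36me3 only, H3K36me3 covered that position in 0.74%. The next values are again those of the 577 genes. At 2100 bp H3K9me3 had dropped to 7.47% and H3K36me3 had reached 9.90%, and at 4100 bp the values were 2.15% and 18.6%. In genes with start H3K9me3 only, H3K9me3 declined more gradually, covering 34.6% of genes at 2100 bp and 14.8% at 4100 bp.

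**Figure D1:**
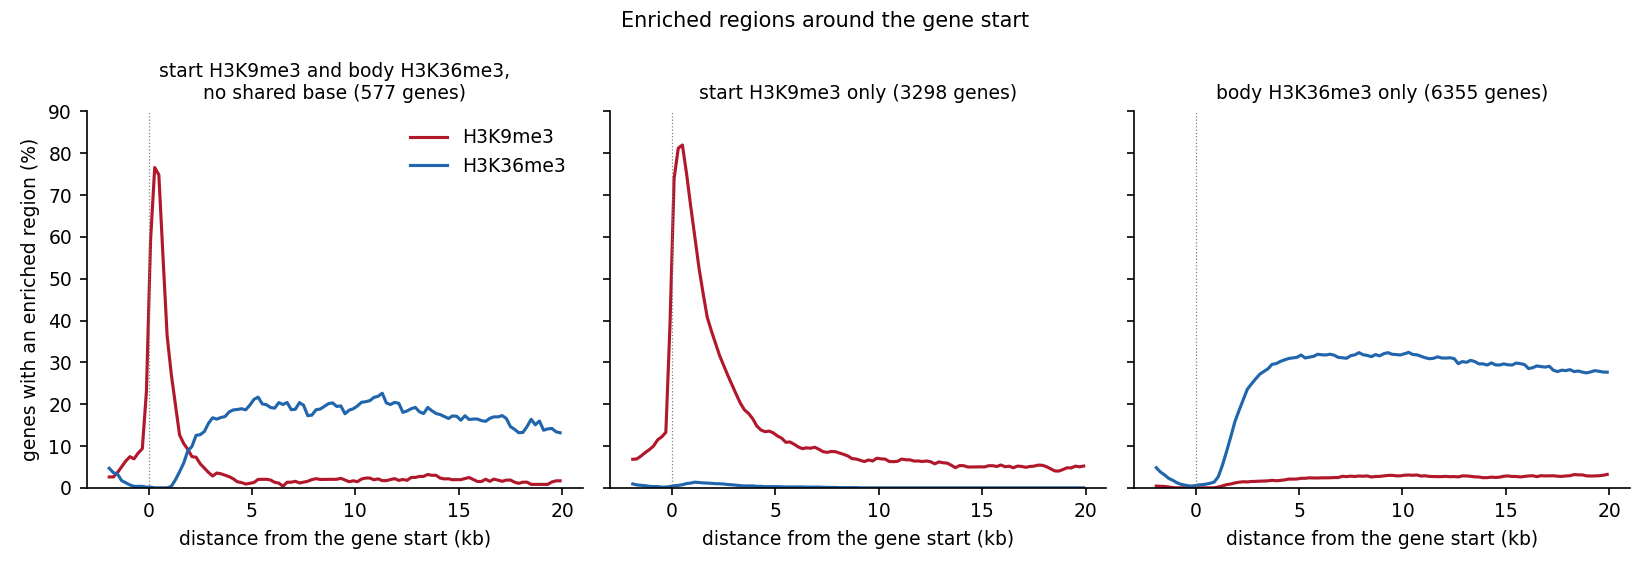
Percentage of genes with an H3K9me3 region (red) or an H3K36me3 region (blue) at each position from 2 kb before to 20 kb after the gene start, in 200 bp steps, among genes long enough to reach the position. In the 577 genes with both marks and no shared base, H3K9me3 peaked at 76.6% 300 bp after the start. H3K36me3 rose from 1 kb onwards, the distance that the rule set.

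H3K36me3 covered less of these genes than of genes with body H3K36me3 only. The median gene held 2 H3K36me3 regions with 3000 bp in all, against 3 regions and 4800 bp in genes without start H3K9me3. The mark covered a median of 14.0% of the gene (11.3 to 17.3, n = 577), with quartiles of 3.70% and 39.0%, compared with 28.3% (27.5 to 29.5, n = 6355). Low coverage was not particular to the 577, since the 349 genes whose marks shared bases had 13.8% (9.86 to 19). A single region was found in 208 genes, 2 to 5 regions in 260 and more than 5 in 109. At least 25% of the gene was covered in 215 genes, and under 5% in 176. The rule barred bases in both marks from the 577 genes but not from genes with body H3K36me3 only. The part of this condition in the differences, here and in the comparisons below, was not tested. With shared bases allowed, the 926 genes with both marks had a median coverage of 13.9%.

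Over all lengths the first H3K36me3 region lay a median of 10309 bp from the start (8972 to 12508), against 5165 bp (4943 to 5384) in genes with body H3K36me3 only. In the 349 genes with shared bases, which were longer with a median of 49318 bp, it lay at 11038 bp (8781 to 14417), an interval overlapping that of the 577. Expressed along the gene, it began at 49.9% of the length (45.1 to 55.4) against 32.6% (31.7 to 33.6) with body H3K36me3 only and 37.2% (31.6 to 43.6) with shared bases. The mean position of H3K36me3 bases was 72.5% of the way along the gene (69.5 to 75.5), compared with 63.9% (63.4 to 64.5) and 63.3% (60.9 to 66.5) in the same order. The mark reached the annotated gene end in 28.9% (25.4 to 32.8) of the 577 genes and 30.3% (29.2 to 31.5) of genes with body H3K36me3 only, and these intervals overlapped. H3K36me3 bases of the 577 genes were 15.5% coding and 12.3% other exon, whereas whole genes were 4.06% and 5.20%.

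The 577 genes were longer than average, with a median of 28007 bp (25525 to 32286) against 21941 bp for genes with body H3K36me3 only and 15535 bp for all genes. Coverage was therefore compared within 5 classes of gene length, each with 4282 to 4285 of all genes. From 3293 to 10217 bp the median coverage was 34.2% (29.3 to 44.5) against 45.2% (43.2 to 47.1) without start H3K9me3. From 22979 to 54497 bp it was 12.3% (8.23 to 15.1) against 24.4% (22.8 to 26.8), and in the longest class 2.47% (1.84 to 3.86) against 6.14% (5.43 to 7.03). The intervals were apart in these longer classes and overlapped in the other 3, which include 34.7% (18.8 to 50.2, n = 11) against 37.6% (34.4 to 40.4) in the shortest genes and 30.5% (22.7 to 39.9) against 38.3% (36.5 to 40.8) from 10219 to 22976 bp. The first H3K36me3 region began later in the longer classes. Its median distance was 1477 bp (1150 to 2083) against 1527 bp (1439 to 1596) in the shortest class and 2707 bp (2249 to 3113) against 2414 bp (2307 to 2499) in the next, with overlapping intervals. In the other 3 classes the intervals were apart, with 6285.5 bp (5039 to 7437) against 4279 bp (4027 to 4528), 15910 bp (12939 to 18726) against 8800 bp (8227 to 9281) and 61191.5 bp (46447 to 68497) against 29511 bp (27447 to 31806). In genes of at least 10 kb, mean coverage of the second of 10 equal parts of the gene was 7.88% ± 0.947 (SE over 475 genes) against 16.8% ± 0.417 (4919 genes), and in the last part 33.8% ± 1.64 against 39.9% ± 0.535.

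**Figure D2:**
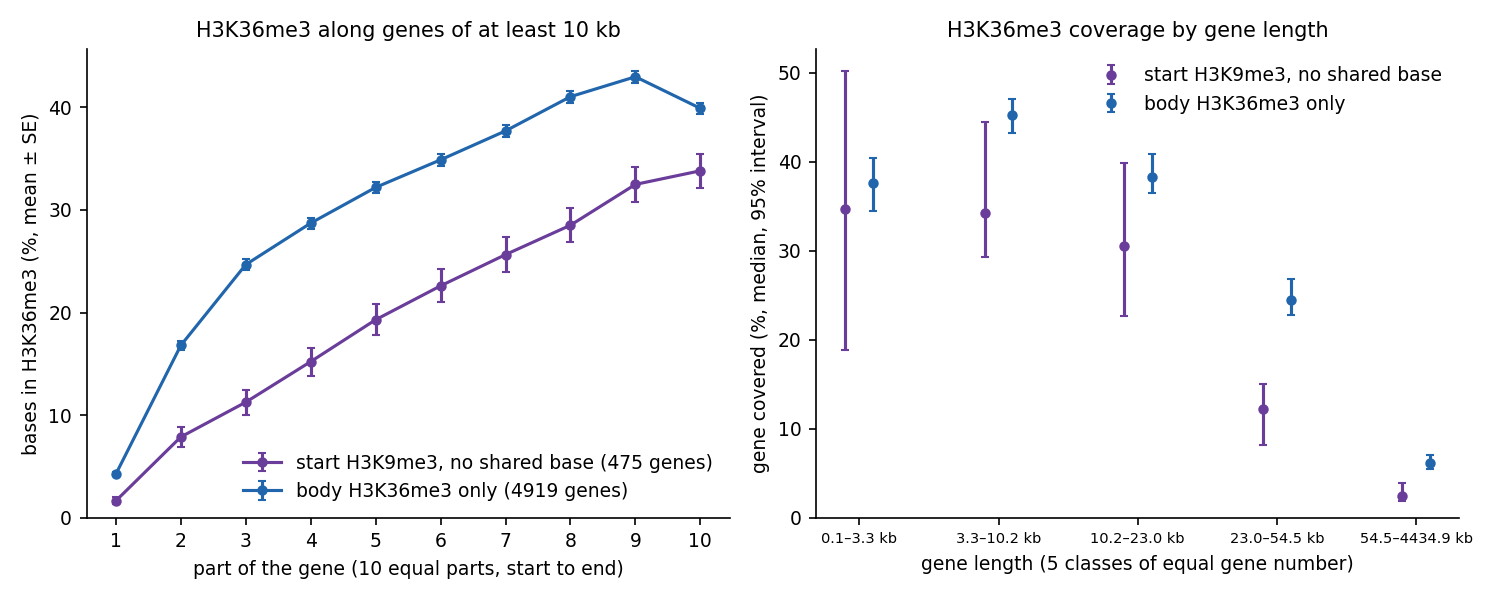
Left, mean percentage of bases in H3K36me3 regions (± SE over genes) in each of 10 equal parts of genes of at least 10 kb, for 475 genes with start H3K9me3 and no shared base (purple) and 4919 with body H3K36me3 only (blue). Right, median percentage of the gene covered with its 95% interval in 5 classes of gene length, in which the purple points lie below the blue ones in each class, with overlapping intervals in 3 classes.

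Body H3K36me3 was in turn less frequent in genes with start H3K9me3. Over genes of 3293 to 10217 bp, 16.2% (13.8 to 19) of those with start H3K9me3 had it, against 36.6% (35.0 to 38.2) of those without. In the following classes the values were 30.7% against 49.4%, 31.2% against 52.3% and 24.9% against 42.9%. In genes of at most 3290 bp, where room for a distant region is scarce, 2.35% (1.43 to 3.84) compared with 5.40% (4.72 to 6.19). These counts include the genes in which the marks share bases.

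Distances between the marks ranged over several orders of magnitude. The median gap from the start H3K9me3 region to the nearest H3K36me3 region beyond 1 kb was 9600 bp (8200 to 11600), with quartiles of 3000 and 30800 bp. In 27 genes the gap was under 1 kb, in 281 it was 10 kb or more and in 98 it was 50 kb or more. The regions adjoined, with 0 bp between them, in Snrpd3 and Ankrd9. Snrpd3 encodes a core Sm protein of spliceosomal snRNPs. Its H3K9me3 spanned 614 to 1213 bp after the start, H3K36me3 began at 1214 bp and 49.4% of the gene was covered. In Ankrd9 H3K9me3 lay at 250 to 1249 bp, and H3K36me3 ran from 1250 bp to the gene end, over 66.1% of the 3688 bp gene. Eif5a, a translation factor, and Rps6ka4, a nuclear kinase of histone H3, each had a gap of 200 bp, and Plscr3, a phospholipid scramblase, had 400 bp.

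At the other extreme, the gap was 678200 bp in Prkg1 (cGMP-dependent protein kinase), 629800 bp in Grip1 (a glutamate receptor scaffold), 593400 bp in Mast4 (a microtubule-associated kinase), 371800 bp in Oxr1 (oxidation resistance) and 284200 bp in Syne2 (a nuclear envelope spectrin-repeat protein). All 5 had under 1% of the gene in H3K36me3, from 0.0997% in Mast4 to 0.888% in Syne2. Prkg1, Grip1 and Mast4 overlap another protein-coding gene, and with coordinates alone an H3K36me3 region cannot be assigned to either gene of an overlapping pair. In the 577 genes as a whole, 179 (31.0%) overlapped another protein-coding gene, and in 117 (20.3%) some H3K36me3 lay in such an overlap. The 398 genes without overlap had a median gap of 10500 bp and a median coverage of 12.6%.

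The longest H3K36me3 was in Myh9, the heavy chain of a non-muscle myosin, with 53800 bp or 65.9% of the gene (chr15:77591017-77672605), including 1 region of 37200 bp. Its H3K9me3 was a single 600 bp region 405 to 1004 bp after the start. Next came Ep400, an ATPase of the TIP60 acetyltransferase complex, with 47809 bp in 25 regions. The gene 1110012J17Rik had 39600 bp and Brd1, a scaffold of a histone acetyltransferase complex, had 35671 bp or 76.0% of its length. These 4 genes had start H3K9me3 of 600 or 800 bp lying wholly after the start, ending no later than 1089 bp. The shortest genes, Gm6104, Fbxl15, Ppp1r14b, B3gnt9-ps and Nudt17, measured 1468 to 2669 bp and each had a gap of 600 to 1800 bp. The single-exon gene Gm6104 lies in another gene and had its H3K9me3 from -1450 to -651 bp relative to its start, outside the gene. All 800 bp of that region lay in H3K36me3 as well, and the gap given for this gene is to the H3K36me3 region beyond 1 kb.

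The longest start H3K9me3 had a different arrangement. In Grb10, an imprinted adaptor of growth factor receptors (chr11:11830511-11938686), an 18600 bp region ran from -114 to 18485 bp, 13 further H3K9me3 regions followed, and the only H3K36me3 region was 600 bp long at 101686 bp. Tnrc18 had H3K9me3 of 4400 bp and a single H3K36me3 region of 1200 bp, 53200 bp away. In Bai1, an adhesion G protein-coupled receptor, H3K9me3 measured 4200 bp and H3K36me3 8000 bp in all. Orc2, a subunit of the origin recognition complex, differed from these 3. Its 9800 bp region ran mainly outward, from -9247 to 552 bp, and 13 H3K36me3 regions covered 41.1% of the gene, which overlaps another protein-coding gene.

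**Figure D3:**
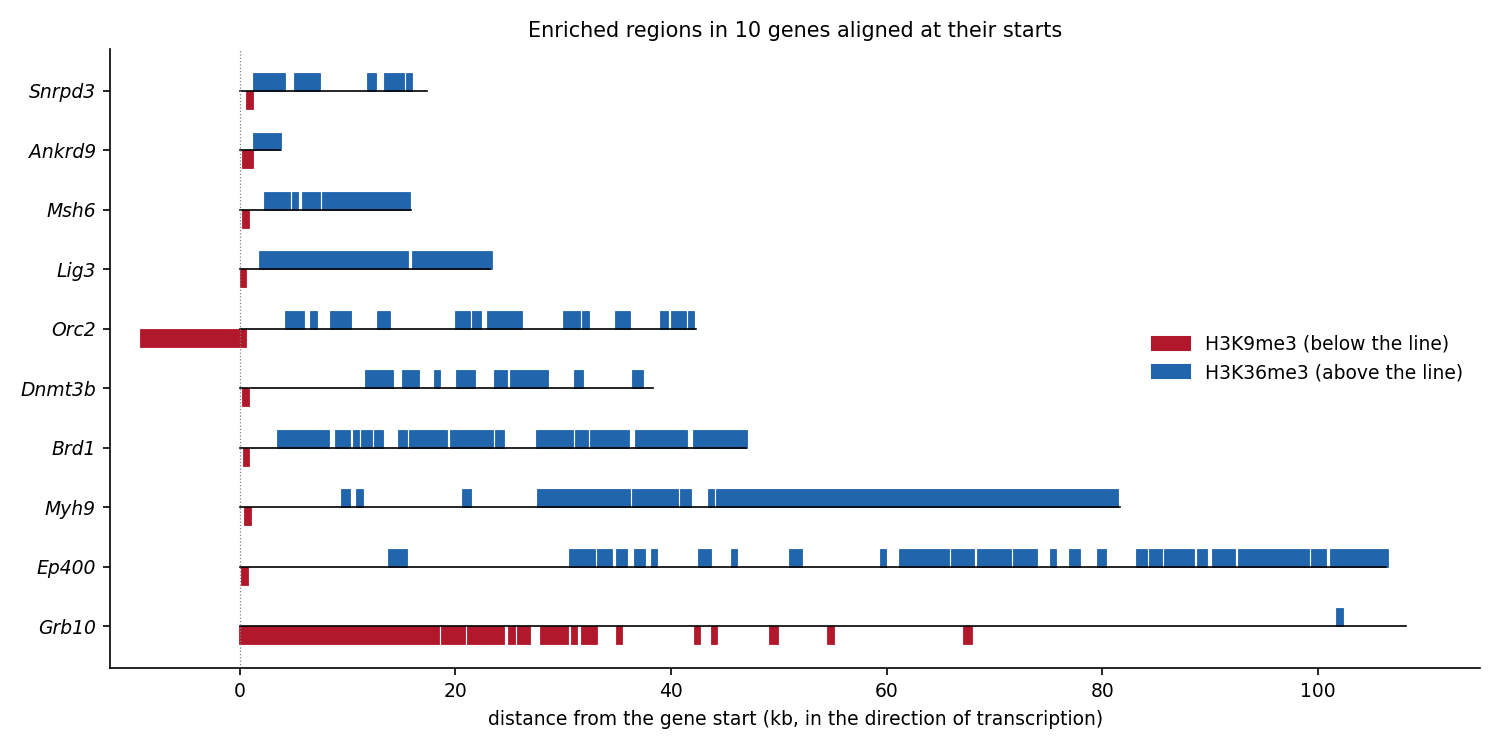
Enriched regions in 10 of the named genes, aligned at the gene start and drawn to scale in kb in the direction of transcription, with the gene as a black line, H3K9me3 in red below it and H3K36me3 in blue above it. Most genes show 1 narrow H3K9me3 region beside the start, whereas in Grb10 H3K9me3 fills the first 18485 bp and in Orc2 it extends 9247 bp before the start.

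Across all 577 genes, a wider start region went with less H3K36me3. The median coverage was 19% (14.4 to 24.5) in the 319 genes with a 600 bp region, 14.7% (9.14 to 20.0) in the 148 with 800 to 1000 bp and 4.72% (3.25 to 7.39) in the 110 with over 1 kb. Genes with at least 25% coverage made up 44.2%, 34.5% and 20.9% of these groups. Those with over 1 kb were also longer, with a median of 35421 bp against 26784 bp for the 600 bp group. Within classes of gene length, the intervals of the over 1 kb and the 600 bp groups were apart from 10219 to 22976 bp (9.51%, 4.31 to 29.6, n = 26, and 40.2%, 29.9 to 51.0, n = 73). They were also apart from 22979 to 54497 bp (5.31%, 3.87 to 8.41, n = 28, and 14.4%, 8.52 to 27.7, n = 93) and in the longest class (1.05%, 0.740 to 2.05, n = 41, and 3.21%, 2.15 to 6.65, n = 91). They overlapped from 3293 to 10217 bp (23.8%, 9.94 to 52.0, n = 14, and 43.4%, 31.9 to 59.9, n = 55), and the shortest class held only 1 gene with over 1 kb. The middle group of 800 to 1000 bp was not between the others in each class, since in the longest genes its median of 3.88% (2.17 to 6.09, n = 44) was above that of the 600 bp group. Both quantities come from the lists that chose the genes, and this is a description of the genes chosen. A 600 bp region is also the narrowest that the lists admit, and without signal its strength could not be compared with that of wider regions.

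The starts of these genes were rich in G+C and CG. Within 500 bp on each side of the start, the median G+C content was 64.3% (63.8 to 65.1), compared with 58.9% (58.7 to 59.1) in genes with body H3K36me3 only, 60.1% (59.7 to 60.6) with start H3K9me3 only and 55.0% over all genes. The 349 genes with shared bases had 63.2% (62.1 to 64.5), an interval overlapping that of the 577. The observed to expected CpG ratio was 0.823 (0.808 to 0.834), against 0.747 (0.742 to 0.753), 0.663 (0.653 to 0.674) and 0.559 in the same order, and 0.777 (0.754 to 0.806) with shared bases. A CpG-rich start, with a ratio of at least 0.6 and G+C above 50%, was found in 507 of the 577 genes (87.9%, 85.0 to 90.3). The share was 75.2% (74.1 to 76.3) in genes with body H3K36me3 only, 58.8% (57.1 to 60.4) with start H3K9me3 only and 45.0% overall. The 349 genes whose marks shared bases had 77.9% (73.3 to 82.0).

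**Figure D4:**
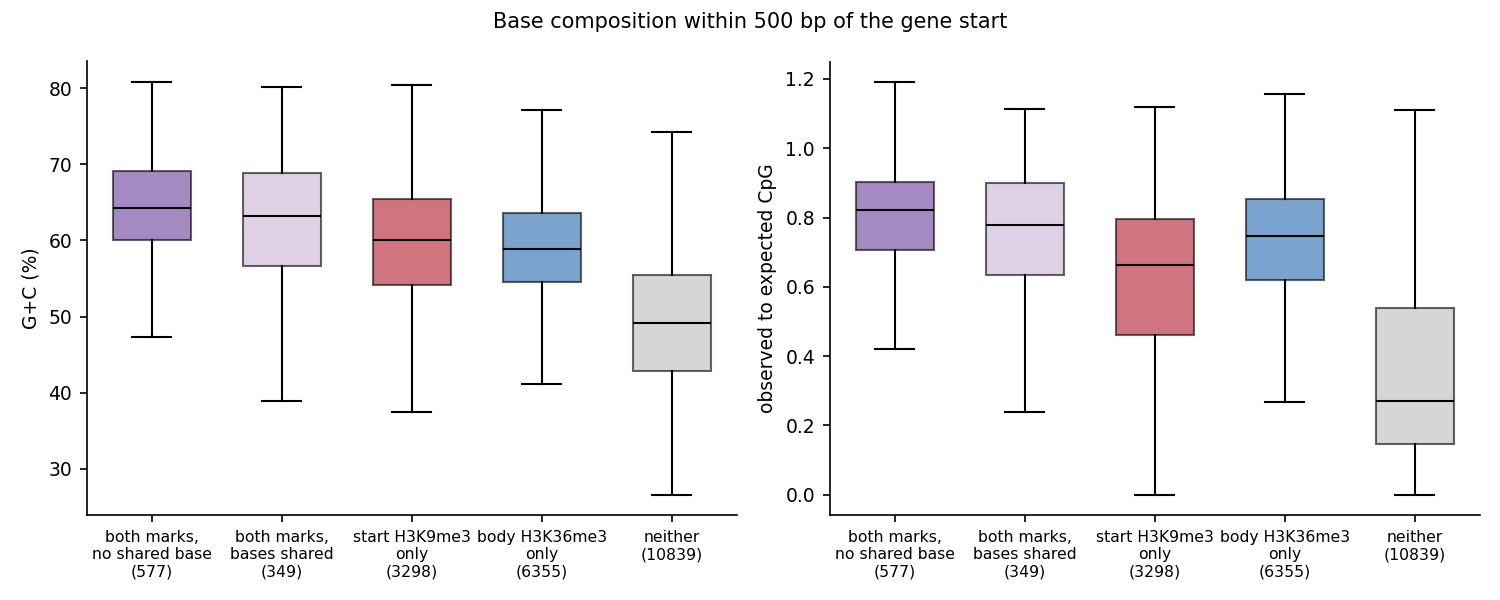
G+C content (left) and observed to expected CpG ratio (right) within 500 bp of the gene start in 5 classes of autosomal protein-coding genes, with the number of genes in brackets. Lines mark medians, boxes quartiles and whiskers the furthest values within 1.5 interquartile ranges, and the 577 genes with both marks and no shared base have medians of 64.3% and 0.823, close to the 63.2% of genes with shared bases for G+C.

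The share of genes with this arrangement climbed with G+C. It was 0.101% (0.0391 to 0.258) of the genes with a start below 45% G+C, 2.05% (1.66 to 2.51) between 55 and 60%, 4.75% (4.08 to 5.51) between 60 and 65%, and 9.20% (8.21 to 10.3) from 65% upwards. Among genes with body H3K36me3 the share was 2.29% (0.892 to 5.73) below 45% and 17.0% (15.2 to 18.9) from 65%. Start H3K9me3 itself rose with G+C over all genes, from 4.90% in the lowest class to 44.1% in the highest. The start H3K9me3 regions had a median G+C of 66.6% (65.8 to 67.5), while the H3K36me3 regions of the same genes, at 48.0% (47.7 to 48.4), were close to the 46.8% of the rest of the H3K36me3 list. Recovery of fragments by base composition could not be examined from coordinates, and its part in these figures was not tested.

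**Figure D5:**
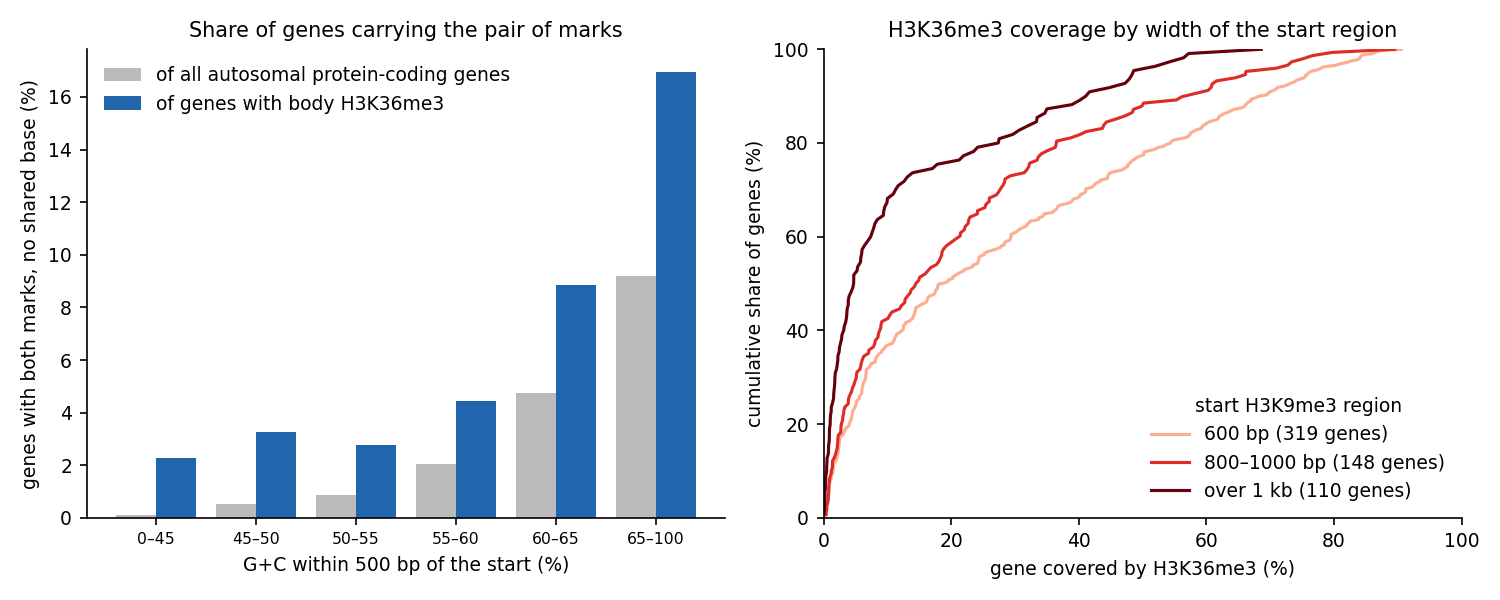
Left, share of genes with both marks and no shared base by G+C content within 500 bp of the start, as a percentage of all autosomal protein-coding genes (grey) and of those with body H3K36me3 (blue), rising to 9.20% and 17.0% in the class of 65% and above. Right, cumulative share of the 577 genes by the percentage of the gene in H3K36me3, for start H3K9me3 regions of 600 bp, 800 to 1000 bp and over 1 kb, with medians of 19%, 14.7% and 4.72%.

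The 70 genes without a CpG-rich start differed in some measures. Their start H3K9me3 had a median width of 800 bp, against 600 bp with a CpG-rich start, and their median length was 18009.5 bp against 29853 bp. H3K36me3 reached the gene end in 32 of 70 (45.7%) and in 135 of 507 (26.6%). Grb10, the imprinted translational regulator Impact, and the deubiquitinase Usp14 belong to this group, with CpG ratios of 0.450, 0.363 and 0.480. So does the tubulin gene Tuba3a, at 0.515, which was 1 of 60 listed germline genes (1.67%, 0.295 to 8.86, an interval that includes the 2.69% of all genes).

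Short sequence motifs were searched on both strands in the 250 bases before and 50 after each start. GGGCGG, the letters bound by SP and KLF factors, was present in 69.8% (66.0 to 73.4) of the 577 genes, 64.3% of genes with body H3K36me3 only and 43.7% of all genes. The 349 genes whose marks shared bases had 70.2% (65.2 to 74.8), an interval overlapping that of the 577. CCGGAA, the core bound by ETS factors, was present in 25.1% (21.8 to 28.8) of the 577 genes. This was below the 32.7% (31.5 to 33.8) of genes with body H3K36me3 only and above the 11.4% (10.4 to 12.5) of genes with start H3K9me3 only. With shared bases it was at 15.8% (12.3 to 20.0). Among CpG-rich starts alone, GGGCGG was at 75.9% (72.0 to 79.5) in the 577 genes, 72.7% (71.4 to 73.9) with body H3K36me3 only and 73.9% (71.9 to 75.8) with start H3K9me3 only. For the same 3 classes CCGGAA was at 26.2% (22.6 to 30.2), 37.0% (35.6 to 38.4) and 13.2% (11.7 to 14.7). The NRF1 motif GCATGCGC followed the same order among these starts with 3.75% (2.41 to 5.78), 7.55% (6.84 to 8.34) and 2.53% (1.92 to 3.33), as did the YY1 motif AAGATGGCG with 2.76% (1.65 to 4.58), 4.75% (4.18 to 5.39) and 0.774% (0.470 to 1.27). The intervals of the 577 genes overlapped those of start H3K9me3 only for NRF1 and those of body H3K36me3 only for YY1.

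CACGTG (E-box) stood at 13.8% (11.1 to 17.1), 12.1% (11.2 to 13.1) and 9.65% (8.41 to 11) among CpG-rich starts, where the interval of the 577 genes overlapped that of genes with body H3K36me3 only and was just above that of genes with start H3K9me3 only. For the last 3 motifs it overlapped both. TTCCCGCC (E2F) was at 4.54%, 5.71% and 3.97%, and TGCCGC (ZFP57) at 24.1%, 22.5% and 26.3%. TATAAA occurred in 4.93%, 4.98% and 6.50%, and over all genes in 13.5%. In the promoters printed above, GGGCGG was found in Rps6ka4 and Grip1, CCGGAA in Orc2, and TGCCGC in Rps6ka4 and Prkg1. Such matches describe the letters only.

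Another protein-coding gene started within 1 kb of the start in 106 of the 577 genes (18.4%, 15.4 to 21.7). This was near the 19.9% of genes with body H3K36me3 only and above the 8.37% (7.47 to 9.36) of genes with start H3K9me3 only. The 349 genes whose marks shared bases had 11.5% (8.53 to 15.2). Among the 398 of the 577 genes that overlap no other gene, the share was 10.8% (8.12 to 14.2). Where H3K9me3 lay before the start, 28 of 42 genes had such a neighbour, but since the authors kept only bins overlapping annotated genes, a region before a start is listed mainly where another gene lies, and this count cannot be told apart from that selection. An example is Polr2b, an RNA polymerase II subunit, with H3K9me3 from -971 to -172 bp relative to the start and H3K36me3 over 60.2% of the gene. The start region overlapped another protein-coding gene for 110 genes, and H3K9me3 there may belong to either gene.

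An annotated coding transcript start more than 1 kb from any H3K9me3 was present in 176 genes (30.5%), and in 128 (22.2%) such a start lay before the first H3K36me3. In the remaining genes no such start preceded H3K36me3. Of the 110 genes with a start region over 1 kb, 39 (35.5%) had a start free of H3K9me3 before the H3K36me3, against 59 of 319 (18.5%) with a 600 bp region. In the wider group the first H3K36me3 lay further in, at a median of 18631.5 bp against 7437 bp. The part of this distance in the difference was not tested. Of the 212 genes with 1 annotated coding start, 2 had a start free of H3K9me3 before the H3K36me3. Which transcript start was used in these cells is not in the lists.

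Gene lists were compared with the 2.69% of all genes that qualified. Dnmt3b and Dnmt3a, the de novo DNA methyltransferases, were 2 of 16 listed genes of DNA methylation and demethylation (12.5%, 3.50 to 36). All 16 carried body H3K36me3, and the interval includes the 7.92% of all genes with body H3K36me3 that qualified. Dnmt3b (chr2:153475186-153513466) had 600 bp of H3K9me3 at 215 to 814 bp and 13200 bp of H3K36me3 from 11615 bp onwards. Dnmt3a had 1800 bp of H3K9me3 at 194 to 1993 bp and 4200 bp of H3K36me3, beginning 91194 bp into its 108437 bp. Of 41 enzymes and readers of H3K9 and H3K36 methylation and H3.3 chaperones, 3 qualified (7.32%, 2.52 to 19.4), an interval that includes the share over all genes. Atf7ip, the partner of SETDB1, had 24.1% of the gene in H3K36me3, the H3K36 demethylase Kdm2a had 19.5% and the methyltransferase Smyd2 had 3.34%.

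Of 56 replication genes, Orc2, Orc6 and Gins3 qualified (5.36%, 1.84 to 14.6), and of 85 repair genes Lig3, Msh6 and Ercc2 (3.53%, 1.21 to 9.87). Both intervals include 2.69%. Lig3, a DNA ligase, had the highest coverage of all 577 genes at 90.5%, with H3K9me3 from -9 to 590 bp and H3K36me3 from 1791 bp. Ercc2, a helicase of TFIIH, had 86.5% and Msh6 80.8%. Each of the 3 overlaps another protein-coding gene. Orc6 had 59.9%, and Gins3, of the GINS complex of the replicative helicase, 12.2%.

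Among 77 genes of the transcription machinery and Mediator, 66 carried body H3K36me3, and 7.92% of all genes with body H3K36me3 qualified. Of the 77, 5 qualified (6.49%, 2.81 to 14.3, against 2.69% of all genes). They were Polr2b, the TFIID subunits Taf5 (48.1% covered) and Taf11 (27.1%), the Mediator subunit Med13l (14.8%, with H3K36me3 from 160673 bp) and the kinase Cdk13 (2.24%). Splicing gave 2 of 91 genes (2.2%, 0.605 to 7.66), Snrpd3 and Prpf6, the latter with 26.3% covered. The cell cycle gave 1 of 70 (1.43%, 0.253 to 7.66), the cohesin subunit Smc3, with 44.7% covered. Ubiquitin genes were represented by Usp1, Usp14 and Usp31 of 45 Usp deubiquitinases (6.67%, 2.29 to 17.9) and by Ube2o of 34 conjugating enzymes (2.94%, 0.521 to 14.9). The intervals of these 4 lists include the share over all genes.

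Zinc finger genes gave the most members of any list. Of 362 genes with a Zfp symbol, 58 had start H3K9me3 and 194 body H3K36me3, and 7.92% of all genes with body H3K36me3 qualified. Of the 362, 16 (4.42%, 2.74 to 7.06) qualified, with the lower limit close to the 2.69% of all genes. The 16 include 2 overlapping gene records of the same symbol, Zfp664, and the interval counts both, so the count does not set the list apart. The longest H3K36me3 among them was in Zfp507 (14600 bp), Zfp655 (12775 bp), Zfp367 (9800 bp) and Zfp276 (9245 bp), each with H3K9me3 of 600 or 1000 bp. Zbtb17, Zbtb49 and Zbtb1 qualified of 62 Zbtb, Zscan and Zkscan genes (4.84%, 1.66 to 13.3).

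Imprinted genes were represented by 3 of 48 (6.25%, 2.15 to 16.8), Grb10, Impact and Kcnq1, and the interval includes the 2.69% of all genes. Of the 48, 22 carried start H3K9me3 and 21 body H3K36me3. Over all genes, 13.7% of those with start H3K9me3 and 7.92% of those with body H3K36me3 qualified. Impact had 2600 bp of H3K9me3 from -160 to 2439 bp and H3K36me3 over 48.3% of the gene, whereas the potassium channel gene Kcnq1 had 0.188%. Since the lists do not separate alleles, the marks of an imprinted gene can lie on different chromosomes.

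Of 23 pluripotency genes 17 carried body H3K36me3 and 3 start H3K9me3, and 0 qualified (0 to 14.3%). Cytosolic ribosomal protein genes gave 0 of 80 (0 to 4.58%), with 29 carrying body H3K36me3 and 6 start H3K9me3. The mitochondrial ones gave 1 of 77, Mrpl14 (1.30%, 0.230 to 7.0). Each of these 3 intervals includes the 2.69% of all genes, so the counts do not set the lists apart. Of 1433 olfactory and vomeronasal receptor genes 48 had start H3K9me3 and 0 body H3K36me3. Among other families, 12 of 343 solute carriers (3.50%, 2.01 to 6.01), 7 of 211 Tmem genes (3.32%, 1.62 to 6.69), 3 of 67 WD repeat genes (4.48%, 1.53 to 12.4), 10 of 244 Fam genes (4.10%, 2.24 to 7.38) and 1 of 37 kinesins (2.70%, 0.479 to 13.8) qualified, with intervals that include the share over all genes.

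The genes were spread over all 19 autosomes, but unevenly. Chromosome 8 held 84, or 7.76% (6.31 to 9.51) of its 1082 genes, and the next were chromosome 12 with 3.98% (2.77 to 5.69) and chromosome 5 with 3.97%. Chromosome 7 had the lowest share, 1.16% (0.780 to 1.72). Both marks were frequent on chromosome 8, with start H3K9me3 at 31.2% and body H3K36me3 in 46.0% of genes, against 19.7% and 34% over all autosomes. The 84 genes had a median H3K36me3 coverage of 25.7% against 12.6% for the 493 on other autosomes, but were also shorter, with a median of 19534.5 bp against 30534 bp. The part of length in this was not tested, and the copy number of chromosome 8 in these cells was not tested.

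Exact copies of short stretches were rare under the start regions. The central 50 bases of each 200 bp bin were searched for in the assembly on both strands. Of 2776 bins in start regions of the 577 genes, 37 (1.33%, 0.969 to 1.83) occurred more than once, against 2.57% (2.39 to 2.76) of 28823 bins at genes with start H3K9me3 only. Such bins fell in 23 genes, and 554 genes had none.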

How the data were processed

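H3K9me3 and H3K36me3 ChIP-seq reads of WT and H3.3 G34R ES cells were aligned by the authors to mm9 with Bowtie 1.0.0, counted in 200 bp bins and scaled to total reads in SeqMonk, after which the genotypes were matched to each other in distribution. Limited mapping to repeated sites was allowed and duplicate reads were dropped. Bins overlapping annotated genes and above the 95th percentile in either genotype were merged with bedtools 2.20.1. The methods then give a width limit of 500 bp, worded as leaving out wider merged regions, but every listed region is at least 600 bp wide, so it was read here as a minimum, and it sets the 600 bp floor of the width results. The deposited lists hold coordinates only, pooled over both genotypes, with no counts or signal, so depth is unknown. No input control is described for this step in the sources used here.

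Gene records of GENCODE vM1 on NCBIM37 were classified by the rule, the gene start being the 5′ end of the record. The script was checked base by base on simulated coordinates. Analyses used Python 3.11.15 with numpy 2.4.6, pandas 2.3.3, scipy 1.17.1 and pysam 0.24.0. With 1 library per group and pooled lists no test between groups was possible. Genes are described by counts, medians with order-statistic intervals and shares with Wilson intervals, all at 95% and for counting error only. Genes were named as the 5 with the longest H3K36me3, longest start H3K9me3, smallest gap, largest gap and shortest length, plus up to 4 members per gene list by H3K36me3 length, with Cdk13 as the last member of its list. Some genes named by this rule are not reported here. The member genes, gene lists and alternatives were chosen with earlier results of these data known. Alternatives varied the start definition, region width, separation, gene overlap and chromosomes.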

Additional observations from a re-analysis of the deposited data

How the results depend on the processing

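Of 110 values recomputed under 11 alternatives, 88 stayed within 1.5 times the count or within the 95% interval given above and 22 moved. Keeping only regions of at least 1 kb left 150 genes with 254 H3K9me3 and 317 H3K36me3 regions, a median gap of 15700 bp, 63.3% of starts inside the region, a mean H3K36me3 position of 80.9%, coverage of 9.76%, a CpG ratio of 0.791 and a neighbouring start in 11.3%. Allowing shared bases gave 926 genes, 3510 H3K9me3 and 4011 H3K36me3 regions, a position of 68.8% and a length of 35219.5 bp. Leaving out genes that overlap another gave 762 H3K9me3 regions, a length of 32527.5 bp and a neighbouring start in 10.8%. Starts lay inside the region in 48.8% within 500 bp, 38.2% within 2 kb and 56.6% with all coding transcript starts, and the CpG ratio was 0.808 in the last 2 settings. No value moved on adding X and Y, which added 0 genes, or on requiring 1 kb between the lists. With alternatives chosen after seeing the data, no value moved without chromosome 8 (493 genes). The same held without genes whose start region had a bin with copied central bases (554 genes).

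The gene count moved most on keeping only regions of at least 1 kb, with 150 genes in place of 577. The least width listed is 600 bp. Lists without signal allowed neither a stricter enrichment threshold nor a comparison of WT with H3.3 G34R cells. No paired analysis was possible because each group has 1 library and the lists pool them.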
